A study of Oryza sativa Japonica Group and Oryza sativa with 4 samples.

Results

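The response of Ilpum to the green rice leafhopper (GRH) was measured as the difference between 2 leaf RNA libraries, Ilpum control and Ilpum GRH. A gene entered the ranking when it had at least 30 reads in 1 of these 2 libraries, and it was ranked by log2((GRH FPKM + 1)/(control FPKM + 1)), called the log2 ratio from here on. FPKM is a read count corrected for the length of the gene and for the depth of its library. Of 37849 genes in the deposited table, 10551 entered the ranking, 17554 had no reads in either Ilpum library and 9744 had 1 to 29 reads at most.

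Ilpum is a japonica rice cultivar that is susceptible to GRH and was used as the wild type. The series holds 1 library for each of 4 conditions: uninfested Ilpum, Ilpum with GRH, and the same pair for a near-isogenic line (NIL) that carries the Grh1 resistance locus in the Ilpum background. Seedlings were 21 days old, and the infested ones had carried GRH nymphs for 48 h before the leaves were taken, while the controls were grown without insects. The study describes duplicate leaf samples from different seedlings, but the deposited values give 1 library per condition. The differences given here are therefore differences between libraries, without replicates and without p-values.

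GRH is a sucking insect that reaches the phloem of the leaf with its stylet. Wounded or infested leaves commonly make jasmonate, a hormone built from chloroplast fatty acids by lipoxygenases and the enzymes that follow them, and jasmonate releases a set of defence genes from repression by the TIFY (JAZ) proteins. Known defences of rice leaves include volatile terpenes, phenolic compounds, inhibitors of digestive proteinases and enzymes that attack chitin.

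The Ilpum control library had 2119765 reads on genes and the Ilpum GRH library 894661, a ratio of 2.37. The NIL control and NIL GRH libraries had 5037081 and 1170099 reads. Reads fell on 18558 genes in Ilpum control and on 15304 in Ilpum GRH, and the 20 most abundant genes took between 7.75% and 12.4% of the reads of a library. Leaf genes were abundant in both Ilpum libraries, with light-harvesting genes summing to 48814 FPKM in the control and 26235 FPKM with GRH. None of the 3 root markers reached 30 reads. Of the 9 circadian clock genes checked, 8 entered the ranking, and all of these 8 were less than 2-fold different between the libraries, with log2 ratios between -0.59 and 0.62.

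At the 4-fold threshold, 574 genes were higher with GRH (5.44% of the genes ranked) and 1040 were lower (9.86%). At 2-fold the counts were 1485 higher (14.1%) and 2526 lower (23.9%), and the median log2 ratio over all ranked genes was -0.20, with quartiles of -0.95 and 0.50. The order of these counts turned with the filter. Because the control was sequenced more deeply, a gene could reach 30 reads through the control at a lower abundance than through the GRH library. With a minimum on reads scaled to equal depth, 574 genes were higher and 330 lower, and among the 9837 genes with reads in both libraries 475 were higher (4.83%) and 425 lower (4.32%). At 2-fold, 1386 of these genes were higher (14.1%) and 1911 lower (19.4%).

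**Figure D1:**
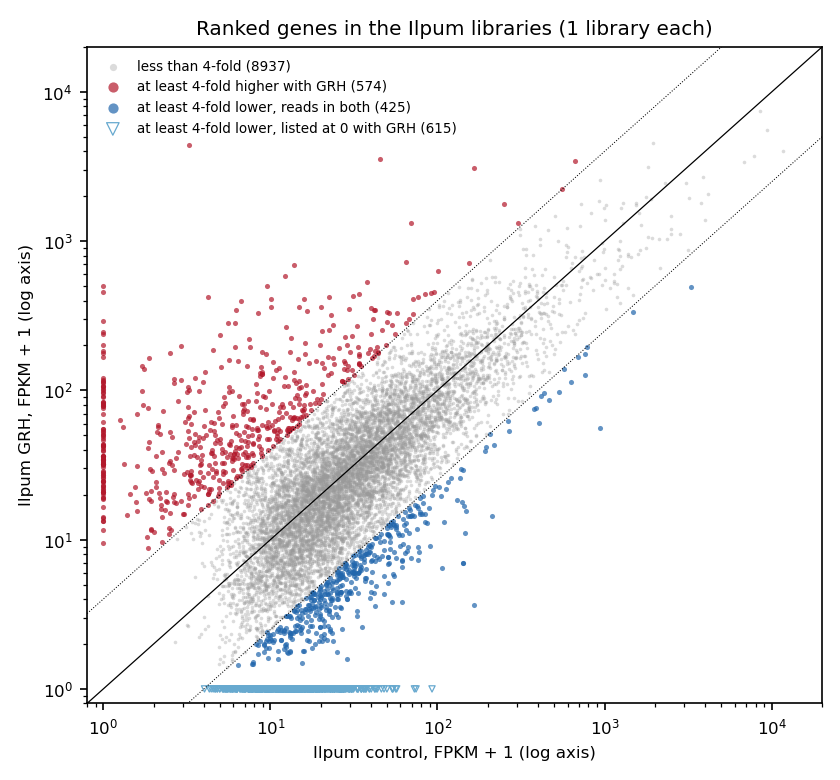
Each point is a gene of the 10551 ranked, with FPKM + 1 in Ilpum control on the x axis and in Ilpum GRH on the y axis (both log axes, 1 library each). The solid line marks equal values and the dotted lines a 4-fold difference, the 574 genes above it are red and the 425 lower genes with reads in both libraries blue, and the 615 lower genes listed at 0 with GRH lie along the bottom as open triangles.

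Of the 1040 lower genes, 615 were listed at 0 reads in the GRH library, and these were all of the ranked genes at 0 there. Of the 574 higher genes, 99 were at 0 in the control. Genes at 0 with GRH were mostly of low abundance: their median control count was 43 reads, against 87 for the lower genes with reads in both libraries. Of 2242 genes whose control reads, scaled to the depth of the GRH library, lay between 12.7 and 20, 394 (17.6%) were listed at 0. The share was 2.29% between 30 and 50 scaled reads and 0.116% at 100 or more. Of 185 ranked genes of the cytosolic ribosome, 5 were at 0, beside 615 of all 10551 ranked genes. By counting error alone a 0 allows up to about 3 reads. Every ranked gene at 0 with GRH had 12.7 or more scaled control reads because the filter asked for 30 control reads of it. What set a listed 0 was not tested, so it is not read here as a measured loss. Genes at 0 are given with their reads. No fold is given against such a 0. A log2 ratio against one depends on the 1 FPKM added.

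**Figure D2:**
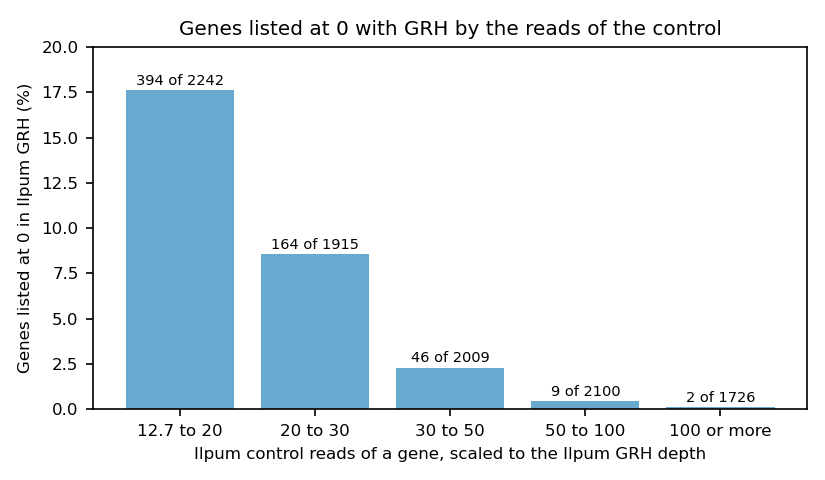
Bars give the percentage of genes listed at 0 in Ilpum GRH by the control reads of the gene, scaled to the depth of the GRH library, with the numbers of genes above each bar. The percentage falls from 17.6% in the lowest class to 0.116% at 100 scaled reads or more.

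The 95% counting interval of the read ratio lay above 0 on the log2 scale for all 574 higher genes and below 0 for 1037 of the 1040 lower ones. These exact intervals cover counting error only, and they are too narrow if both reads of a pair were counted. For the 615 lower genes at 0 with GRH they take the listed 0 as a true count. The nearest genes inside and outside the 4-fold threshold had log2 ratios of 2.0021 and 1.9999 among the higher genes and of -2.0002 and -1.9956 among the lower ones. Of the genes ranked, 9153 had a described function, as did 500 of the 574 higher genes and 861 of the 1040 lower genes. In bulk leaf tissue, fewer cells of a type and less RNA per cell cannot be told apart.

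The 15 highest genes had log2 ratios between 6.82 and 10.41, and 14 of them were listed at 0 in the control. First was Os12g0247700, described as similar to a jasmonate-induced protein, at position 8239432 to 8241147 of chromosome 12 on IRGSP-1.0. It had 7 reads (2.26 FPKM) in the control and 5088 reads (4421 FPKM) with GRH, a log2 ratio of 10.41 with a counting interval of the read ratio from 9.71 to 12.07. In NIL it went from 0 to 119 reads. It was the only gene of the 15 with any control read, and it was among the 10 genes of highest FPKM in the infested Ilpum library.

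The others of the 15 included 2 terpene synthases, a peroxidase, and enzymes of several other kinds that make or modify small molecules. Os02g0719600, a methyltransferase of carboxyl groups, had 0 reads in the control and 363 with GRH. Os12g0458100, a transferase, went from 0 to 318 reads. Os07g0526400, a type III polyketide synthase, went from 0 to 258 reads, and Os07g0526600, an alpha/beta hydrolase that lies near it on chromosome 7 (20504692 to 20506402 and 20523736 to 20525356), from 0 to 178. Os10g0400500, with a pyridoxal-dependent decarboxylase domain, went from 0 to 173 reads. Os06g0591400, with no described function, went from 0 to 216 reads, and Os06g0591200, near it on chromosome 6 (23232535 to 23233439 and 23227138 to 23228388) and ranked below the 15, from 6 to 340. Of the 15 genes, 14 were also at least 2-fold higher in NIL, and the exception, Os01g0841700 (similar to elicitor-responsive protein ERG1b, 0 to 82 reads in Ilpum), had no reads in either NIL library.

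Genes were then grouped by function through words in their descriptions. Each list is described by how many of its ranked members were at least 2-fold higher or lower, to be read against 14.1% and 23.9% over all ranked genes, and by its median log2 ratio beside -0.20 over all. A member that reached 30 reads only through the library in which it was high had to differ, so these counts describe the lists and test nothing. Among lists with at least 5 ranked genes, the highest medians were those of terpene synthases (4.99), jasmonate-induced, jacalin and dirigent proteins (2.56), chitinases (2.35, or 1.60 over genes with at least 100 reads) and TIFY repressors (1.86). The jasmonate-induced, jacalin and dirigent list had only 5 ranked genes, none described as dirigent. Among them was the JAZ gene Os09g0439200, which is also in the TIFY list. The lowest median was that of dehydrins and late embryogenesis abundant (LEA) proteins, at -1.85.

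**Figure D3:**
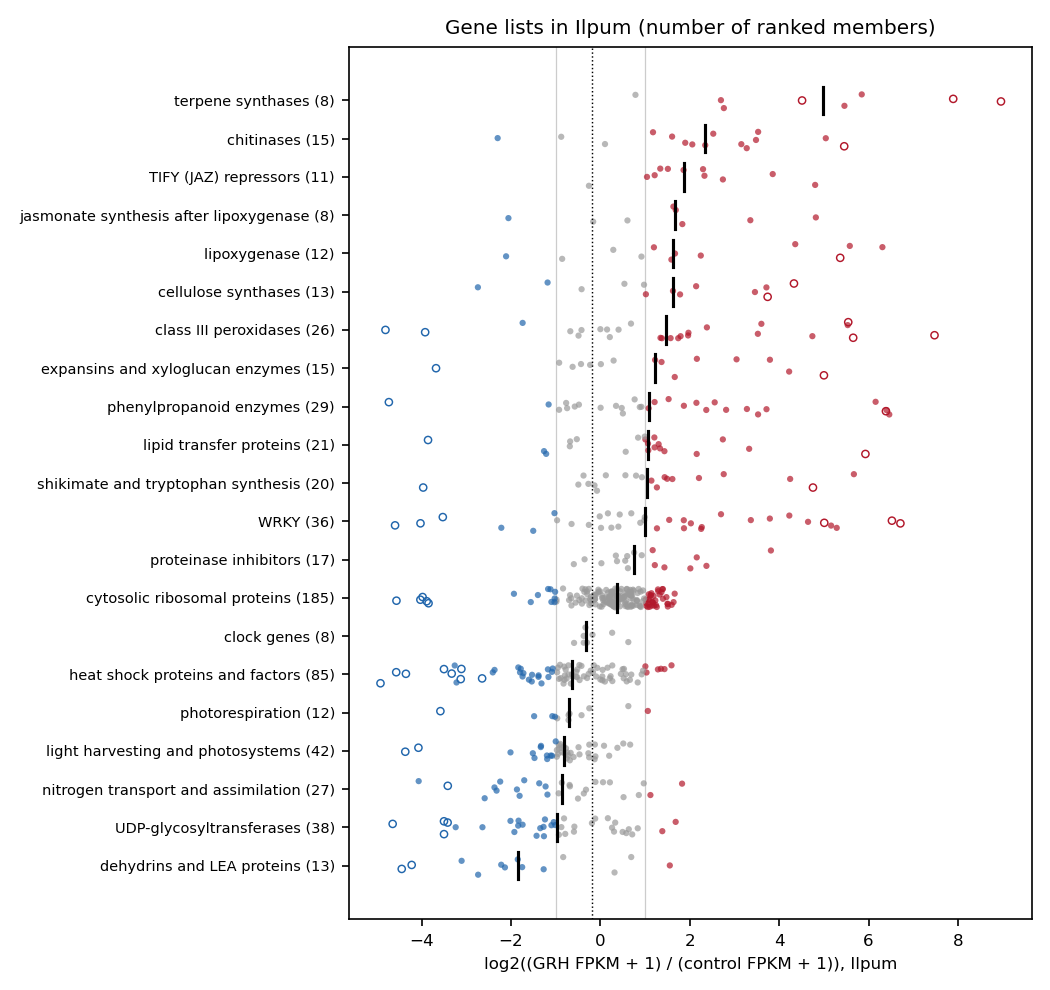
Each point is a ranked member of a gene list in Ilpum, placed by its log2 ratio of FPKM + 1 between GRH and control (red at least 2-fold higher, blue at least 2-fold lower, grey between, open where a library is listed at 0), and the black bar is the median of the list. The dotted line marks the median of all ranked genes, -0.20, and the lists run from terpene synthases at the top with a median of 4.99 to dehydrins and LEA proteins at the bottom with -1.85.

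Lipoxygenases add oxygen to fatty acids and feed the jasmonate route as well as other oxylipins. Of 20 listed, 12 were ranked, of which 8 were at least 2-fold higher and 1 was lower, with a median log2 ratio of 1.63. Os12g0559200 (chromosome 12, 22854591 to 22860198) had 300 reads (44.1 FPKM) in the control and 10530 reads (3577 FPKM) with GRH. It had the most reads of any ranked gene in the infested library. Its log2 ratio was 6.31, with a counting interval of the read ratio from 6.21 to 6.55, and in NIL it went from 237 to 14452 reads. Os12g0559934, a shorter annotated lipoxygenase locus nearby (22934817 to 22935735), went from 15 to 328 reads, and whether reads were divided between the 2 loci was not tested. Os04g0447100, a type-2 13-lipoxygenase, the class that makes jasmonate precursors, went from 101 to 943 reads, a log2 ratio of 4.36 in Ilpum beside 1.81 in NIL. Os03g0738600 went from 0 to 113 reads. The member with the highest control level moved the other way: Os02g0194700, similar to lipoxygenase 2.3 of the chloroplast, had 4241 reads (758 FPKM) in the control and 401 (175 FPKM) with GRH, a log2 ratio of -2.11.

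Allene oxide synthase and cyclase turn the product of lipoxygenase into OPDA (12-oxophytodienoate), the precursor that reductases then reduce. Allene oxide synthase Os03g0767000 had 83 reads (18.8 FPKM) in the control and 385 (202 FPKM) with GRH, a log2 ratio of 3.35. Another locus annotated as allene oxide synthase, Os03g0766900, overlaps it on the other strand and had 60 and 23 reads (-0.16). Allene oxide cyclase Os03g0438100, the next enzyme, went from 355 to 497 reads and from 150 to 486 FPKM, a log2 ratio of 1.69. The OPDA reductases differed among themselves. Os06g0215900 went from 12 to 179 reads (4.82) and Os06g0216300 from 117 to 185 (1.83), while Os08g0459600, annotated as the jasmonate enzyme, had log2 ratio 0.60 and Os01g0369900 was lower, from 77 to 6 reads (-2.06). Os05g0586200, a GH3 family gene that the annotation ties to jasmonate, went from 100 to 139 reads (1.63). In all, 5 of the 8 ranked members of the list were at least 2-fold higher and 1 was lower, with an Ilpum median of 1.66 beside 1.12 for NIL.

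TIFY proteins hold back jasmonate-responsive transcription factors until the hormone triggers their breakdown, and their own genes are known jasmonate targets. Of 14 listed TIFY genes 11 were ranked, and 10 of these were at least 2-fold higher with GRH and none was lower. Os04g0395800 had 3 reads in the control and 52 with GRH (4.81), and Os03g0180800 had 18 and 126 (3.86). The most abundant member, Os03g0402800, had 1062 and 1070 reads, which at the lower depth of the GRH library stood for 408 and 948 FPKM (1.21). The other, Os08g0428400, had a log2 ratio of -0.26. The Ilpum median of 1.86 stood beside 1.10 for NIL.

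Terpene synthases make the carbon skeletons of volatile terpenes and of diterpenoid phytoalexins. Of 34 listed, only 8 were ranked, 7 of them at least 4-fold higher (5.44% over all genes), and their FPKM summed over the list went from 72.2 to 1322. Os08g0168000, similar to a sesquiterpene synthase (chromosome 8, 3972195 to 3977096), had 0 reads in the control and 834 (498 FPKM) with GRH, a counting interval of the read ratio above 9.06 on the log2 scale, and 0 and 467 reads in NIL. Its neighbour Os08g0167800 (3961276 to 3965426), also similar to a sesquiterpene synthase, went from 3 to 102 reads. Os02g0121700 went from 0 to 462 reads (237 FPKM), Os01g0248701 from 2 to 118, and Os04g0178300, similar to syn-copalyl diphosphate synthase of diterpenoid phytoalexins, from 0 to 57. Os08g0139700, similar to terpene synthase 6, was already present in the control, with 235 reads, and had 671 with GRH (2.70). Outside this list, Os07g0190000, similar to a 1-deoxy-D-xylulose 5-phosphate synthase of the plastid isoprenoid route, went from 30 to 435 reads (4.81). Leaving out the 3 genes at 0 in the control brought the list median from 4.99 to 2.76.

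Indole is released from indole-3-glycerol phosphate, an intermediate of tryptophan synthesis, by a lyase that makes it a volatile or a precursor of other defences. The 2 annotated indole-3-glycerol phosphate lyases lie close to each other on chromosome 3 (33214544 to 33217418 and 33226461 to 33228543). Os03g0797500 had 14 reads (4.54 FPKM) in the control and 374 (281 FPKM) with GRH, a log2 ratio of 5.67, and Os03g0797400 had 65 and 556 reads, a log2 ratio of 4.25. Indole-3-glycerol phosphate synthase Os09g0255400, which makes their substrate, went from 20 to 67 reads (2.76). Of the DAHP synthases at the entry of the shikimate route, Os07g0622200 went from 163 to 332 reads (2.21) and Os03g0389700 from 146 to 175 (1.44), while Os08g0484500 had a log2 ratio of -0.27. Tryptophan synthase beta chain Os08g0135900, by comparison, had 507 and 201 reads, a log2 ratio of -0.13. Of 20 ranked genes of the shikimate and tryptophan list, 10 were at least 2-fold higher and 1 was lower, and the median of 1.04 stood beside 0.12 for NIL.

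Phenylalanine ammonia-lyase (PAL) opens the phenylpropanoid pathway to phenolics and lignin. Several PAL genes were nearly absent from the control. Os05g0427400 had 5 reads (0.879 FPKM) in the control and 340 (165 FPKM) with GRH, Os04g0518400 had 5 and 351, Os02g0627100 had 9 and 410, and Os02g0626600 had 0 and 171. Their log2 ratios lay between 6.16 and 6.46, and in NIL they lay between 5.04 and 6.06. The 2 PAL genes with the most reads, Os02g0626400 and Os02g0626100, were present in the control at 204 and 181 FPKM and stood at 748 and 523 FPKM with GRH (1.87 and 1.53). Of these genes, 4 share a stretch of chromosome 2, among them Os02g0626400 (24985256 to 24989388) and Os02g0627100 (25006495 to 25009018). Reads of neighbouring family members can be shared, which was not tested here.

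Later phenylpropanoid enzymes split. 4-coumarate:CoA ligase Os08g0448000, which activates the acids made after PAL, went from 37 to 168 reads (3.28). Cinnamoyl-CoA reductase Os08g0441500, the first enzyme of the lignin branch, went from 5 to 32 (3.72), and caffeic acid O-methyltransferase Os08g0157500 from 63 to 324 (3.53). In contrast, Os04g0683700, a 4-coumarate ligase-like gene that was the most abundant of the list in the control, had 9962 reads (2487 FPKM) there and 1931 (1113 FPKM) with GRH, a log2 ratio of -1.16, where NIL had 0.44. Of 29 ranked members, 15 were at least 2-fold higher and 2 lower, with a median of 1.08.

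**Figure D4:**
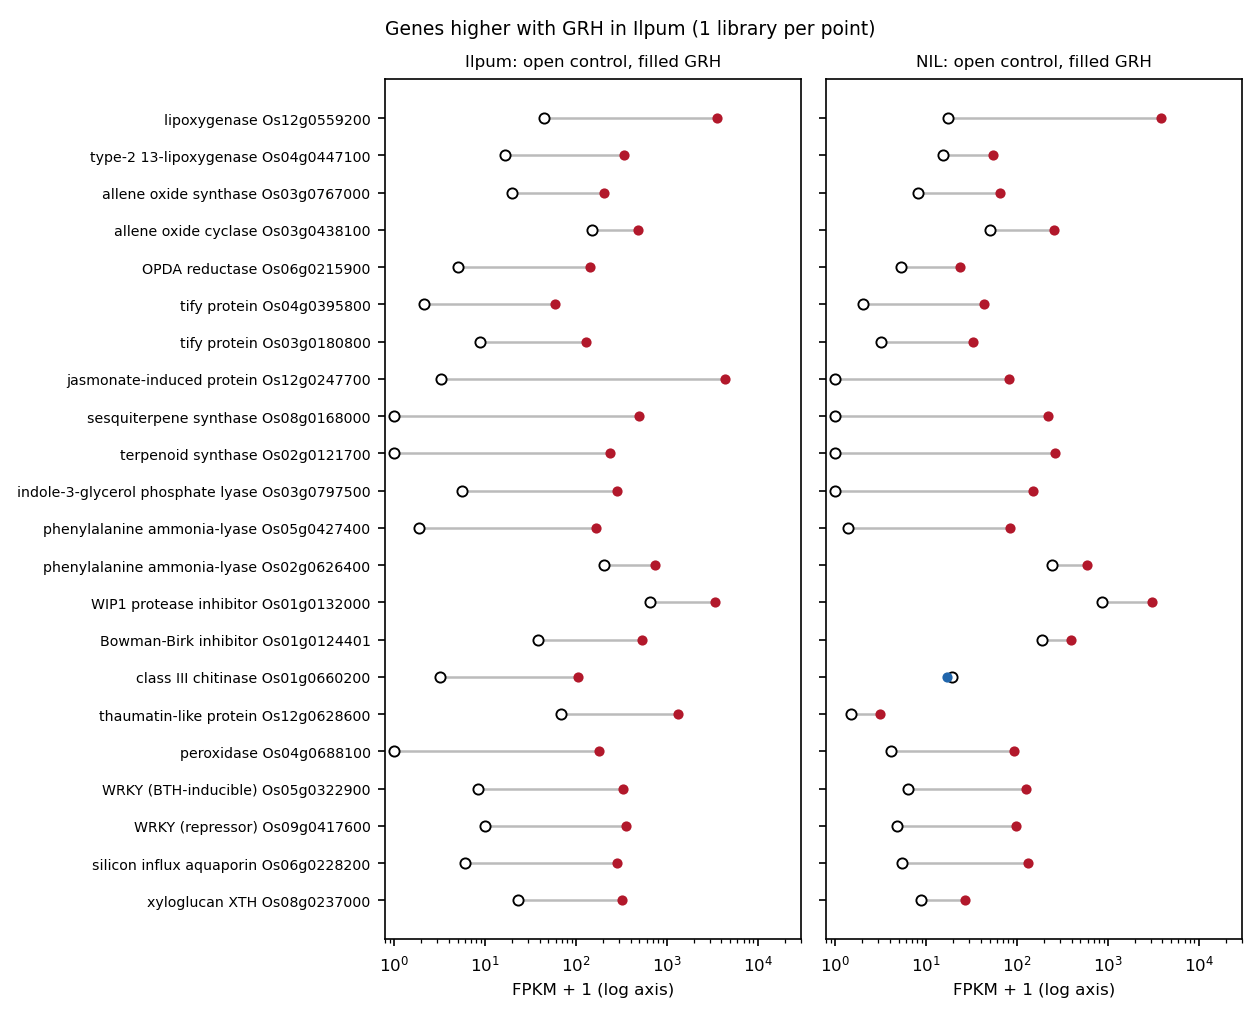
For 22 genes that were higher with GRH in Ilpum, the open point gives FPKM + 1 in the control and the filled point in the GRH library (log axis, 1 library per point), in Ilpum on the left and in NIL on the right. Blue marks a lower value with GRH. The lipoxygenase Os12g0559200 and the jasmonate-induced protein Os12g0247700 reach 3577 and 4421 FPKM in Ilpum GRH, and the class III chitinase Os01g0660200 is the gene without a higher value in NIL.

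Proteinase inhibitors block the digestive enzymes of feeding animals. They were abundant before infestation and more so after it, with a sum over the list of 6746 FPKM in Ilpum control and 16288 FPKM in Ilpum GRH. The wound-induced protease inhibitor (WIP1) gene Os01g0132000 had 824 reads (661 FPKM) and 1850 reads (3428 FPKM), a log2 ratio of 2.37. The Bowman-Birk inhibitor Os01g0123900, with 1940 FPKM in the control and 4512 FPKM with GRH (1.22), was the inhibitor with the highest FPKM in each library. It is 1 of 5 ranked genes of its kind on chromosome 1 between 1338241 and 1354767. The others had log2 ratios of 2.01 (Os01g0124000), 0.93 (Os01g0124100), 0.75 (Os01g0124200) and 3.82 (Os01g0124401), the last with 87 reads in the control and 542 with GRH. Whether reads were shared among these 5 genes was not tested. Of 17 ranked inhibitors, 7 were at least 2-fold higher and none was lower, and the median was 0.75, beside 0.78 for NIL.

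Chitinases cut chitin, the polymer of fungal walls and insect cuticle. Of 38 listed, 15 were ranked and 12 of these were at least 2-fold higher and 1 was lower. Class III chitinase Os01g0660200 had 6 reads in the control and 124 with GRH (5.04), whereas NIL had 121 and 24 reads, a log2 ratio of -0.21. Os06g0726100, similar to a seed chitinase, went from 0 to 48 reads. The chitinase with the most reads, Os05g0247100, did not follow: it had 6056 and 2816 reads, 2286 and 2455 FPKM, a log2 ratio of 0.10. Os06g0149400 was the lower one, with 78 and 6 reads (-2.30).

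Among 10 ranked beta-1,3-glucanases, which cut callose and fungal glucans, 3 were at least 4-fold higher and 2 at least 4-fold lower, beside 5.44% and 9.86% over all genes. Os07g0539900 went from 14 to 262 reads (5.04) and Os01g0940800 from 84 to 512 reads (3.79), while Os06g0607000 had 62 and 4 reads (-2.27) and Os10g0370800 had 45 and 0. The median of the list was 0.36. PBZ1-type proteins, small pathogenesis-related proteins induced by the chemical probenazole, gave Os12g0555000 with 0 reads in the control and 83 with GRH and Os12g0555500 with 179 and 229 (1.55). A thaumatin-like protein gene, Os12g0628600, stood out by its level in Ilpum. It had 116 reads (68.3 FPKM) in the control and 971 (1326 FPKM) with GRH, a log2 ratio of 4.26, and 2 reads in each NIL library. The most abundant thaumatin gene otherwise, Os12g0569500, had a log2 ratio of 0.83.

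Class III peroxidases use hydrogen peroxide to cross-link walls and to oxidise phenolics. Of 144 listed genes, 26 were ranked, 15 were at least 2-fold higher and 3 were lower. Os04g0688100 had 0 reads in the control and 247 with GRH (177 FPKM), and its neighbour by identifier Os04g0688300 went from 241 to 548 reads (2.38). Os02g0240300, with 969 reads in the control, was the most abundant there and had 125 with GRH (-1.74). The median of 1.47 dropped to 0.21 when 100 reads were asked of a gene. The list also holds haloperoxidase-type phosphatases that its word search took in.

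Among transcription factors, the WRKY family, named for a conserved stretch of its DNA-binding domain and known from defence, had the highest median. Of 36 ranked WRKY genes, 17 were at least 2-fold higher, 13 of these at least 4-fold, and 6 were lower, with a median of 0.99. Os05g0322900, annotated as inducible by benzothiadiazole and tied to blast resistance, had 15 reads (7.40 FPKM) in the control and 377 (327 FPKM) with GRH, a log2 ratio of 5.29. Os09g0417600, annotated as a repressor in pathogen defence, had 20 and 304 reads (5.16). WRKY69 Os08g0386200 had 26 and 231 reads (4.23), beside 1.56 in NIL, and Os01g0821600 had 0 and 133. Among the lower ones, WRKY30 Os08g0499300 had 72 reads in the control and 0 with GRH.

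In the other families the counts of higher and lower genes were closer, beside 14.1% and 23.9% over all ranked genes. Of 39 ranked bHLH genes, 10 were higher and 7 lower at 2-fold. Os04g0301500 had 16 reads (5.64 FPKM) in the control and 485 (395 FPKM) with GRH, a log2 ratio of 5.90, and Os01g0705700, similar to ICE1, a regulator named from cold response, had 0 and 183 reads. At the other end, Os01g0924400, similar to an auxin-induced bHLH factor, had 294 reads in the control and 0 with GRH, and in NIL it had 542 and 0. NAC genes gave 7 higher and 7 lower of 36 ranked, led by Os01g0862800 with 18 and 174 reads (4.34), AP2/ERF genes 8 and 7 of 37, led by Os09g0457900 with 4 and 117 (5.40), and MYB genes 8 and 7 of 43. The AP2/ERF search also took in genes of other kinds. Among its 8 higher genes are the methionine synthase Os12g0623900 (1.76) and the adaptin Os03g0355600 (1.08). Among its 7 lower genes are the E3 ligase Os02g0182900 (-1.30), the VAP27-like Os02g0643000 (-1.67) and Os05g0486200 (-2.02), with a KRTCAP2 domain. The NAC search took in 3 genes of the nascent polypeptide-associated complex, of which Os03g0121700 (1.94) is among the 7 higher. Among MYB genes Os04g0517100 had 45 and 257 reads in Ilpum (3.70), where NIL had 399 and 65 (-0.60).

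Of 15 ranked expansin and xyloglucan genes, which loosen and rebuild cell walls, 8 were at least 2-fold higher and 1 was lower. Xyloglucan endotransglycosylase XTH8 Os08g0237000, which cuts and rejoins wall polymers, had 56 reads (22.2 FPKM) in the control and 345 (320 FPKM) with GRH, a log2 ratio of 3.79, beside 1.62 in NIL. Os08g0160500, a synthase of mixed-linkage glucan, a wall polymer of grasses, had 15 and 138 reads (3.46), and Os05g0176100, similar to a cellulose synthase of primary walls, had 34 and 99. Cellulose synthase and related genes had 8 of 13 ranked at least 2-fold higher and 2 lower, with a median of 1.62, which was 1.02 over the 11 with reads in both libraries and 0.98 over those with at least 100 reads. In NIL the median was 0.13, with 2 higher and 2 lower of 11. Several of these genes have more than 1 annotated transcript, and for them reads and FPKM can move apart. The secondary-wall cellulose synthase Os09g0422500, a marker of xylem, had 0 reads in the control and 43 with GRH. It was the only 1 of the 3 xylem markers to be ranked, and the 3 together had 4 reads in the control and 46 with GRH. Whether the sampled leaf pieces differed in vein content was not tested.

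Some transporters were among the strongest differences. Os01g0597600, an amino acid transporter, had 44 reads (12.8 FPKM) in the control and 1009 (696 FPKM) with GRH, a log2 ratio of 5.65, where NIL had 295 and 136 reads (0.97). Os06g0228200, an aquaporin-type channel annotated for silicon influx, had 22 and 433 reads (5.54), and the related channel Os02g0232900, annotated for arsenite transport, had 0 and 68. The monosaccharide transporters Os07g0559700 and Os07g0106200 had 1095 and 1681 reads (1.82) and 135 and 303 reads (2.33). Over the whole list of sugar transporters 7 of 31 ranked were higher and 10 lower. The sucrose transporter SUT1 (Os03g0170900), which marks phloem, had 270 and 249 reads (1.10).

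Genes of the light reactions were mostly lower, by small folds. Of 42 ranked members 37 lay below 0, where 6133 of all 10551 ranked genes did. None was at least 2-fold higher and 12 were at least 2-fold lower, a share not far from the 23.9% over all genes. The median log2 ratio was -0.81, beside -1.65 for NIL. The chlorophyll a-b binding protein Os09g0346500, an antenna protein of photosystem II, had 25397 reads (9317 FPKM) in the control and 6566 (5562 FPKM) with GRH, a log2 ratio of -0.74 with a counting interval of the read ratio from -0.75 to -0.67. Os01g0600900, a type I antenna protein, went from 7873 to 3720 FPKM (-1.08). The minor antenna genes were lower by more: CP29 Os07g0558400 had 1787 and 278 reads (-1.48), and CP24 Os04g0457000 had 1261 and 191 (-1.51). In NIL the same genes had log2 ratios of -3.31 and -2.90.

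Carbon fixation genes went apart from each other. Rubisco activase Os11g0707000, which restores the activity of Rubisco, was the gene with the highest FPKM of the control library. It had 38316 reads in the control and 5696 with GRH, a log2 ratio of -1.55. Os01g0791033 and Os10g0356000, similar to the Rubisco large subunit and among the 10 highest FPKM of the control, had -1.03 and -1.08. The Rubisco small subunit gene Os12g0291100 had 2456 and 1410 reads (1255 and 1672 FPKM), a log2 ratio of 0.41, where NIL had 6922 and 328 reads (-2.66). Glycolate oxidase Os03g0786100, the first peroxisomal enzyme of photorespiration, had 3980 and 637 reads (-1.48). Over 23 ranked Calvin cycle genes, 4 were higher and 4 lower at 2-fold and the median was -0.11. Chlorophyll synthesis genes had medians of -0.04 (Ilpum, 0.48 with the minimum on depth-scaled reads and -0.65 over genes with at least 100 reads) and -1.56 (NIL), with 4 higher and 3 lower of 15 ranked in Ilpum and none higher and 8 lower of 15 in NIL.

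Genes that turn nitrate into ammonium were lower with GRH. Ferredoxin-nitrite reductase Os01g0357100 (chromosome 1, 14446913 to 14453454), which turns nitrite into ammonium in the chloroplast, had 4958 reads (935 FPKM) in the control and 129 (54.8 FPKM) with GRH. Its log2 ratio was -4.07, with a counting interval of the read ratio from -4.28 to -3.77, and -2.46 in NIL. Nitrate reductase, the enzyme before it, was lower in all 3 ranked genes: Os08g0468100 had 5214 and 353 reads (-2.59), Os08g0468700 had 2535 and 217 (-2.32) and Os02g0770800 had 752 and 98 (-1.70). The last of these had a log2 ratio of 0.00 in NIL.

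The glutamine synthetases, which bind the ammonium, did not move as a group. Os02g0735200, the shoot isozyme, had 142 FPKM in the control and 309 with GRH (1.12), the chloroplast gene Os04g0659100 had 320 and 247 (-0.37), and the low Os03g0712800 had 62 and 4 reads (-2.37). Ferredoxin-dependent glutamate synthase Os07g0658400, which follows in the chloroplast, had 3324 and 612 reads (-1.23). Of 27 ranked genes in the list, 12 were at least 2-fold lower and 2 higher, and the median of -0.86 stood beside -0.05 for NIL. One of the 2 higher, the nitrate transporter Os10g0554200, had 94 and 148 reads (1.83) in Ilpum and 236 and 17 (-1.65) in NIL.

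**Figure D5:**
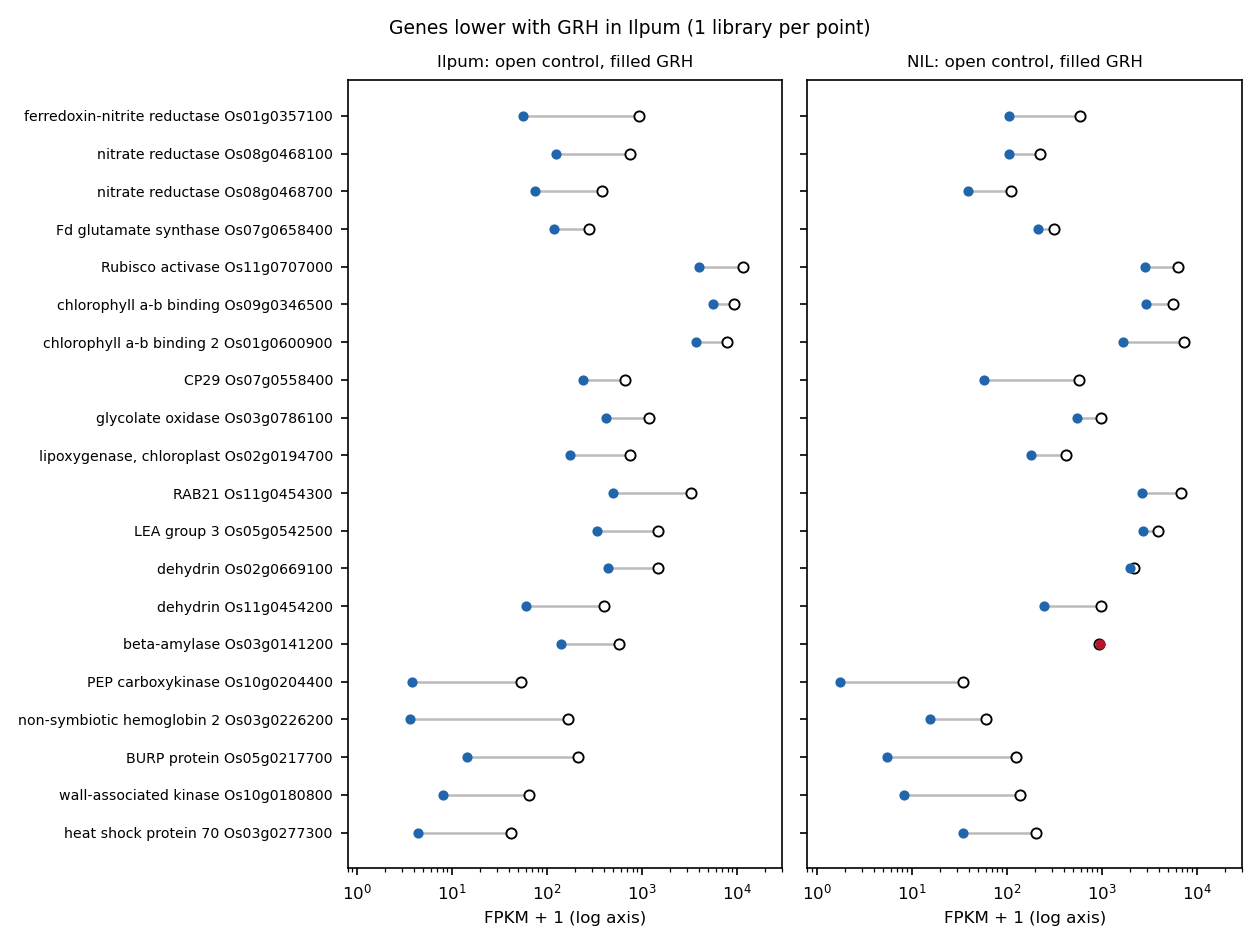
For 20 genes that were lower with GRH in Ilpum, the open point gives FPKM + 1 in the control and the filled point in the GRH library (log axis, 1 library per point), in Ilpum on the left and in NIL on the right. Blue marks a lower and red a higher value with GRH. The nitrite reductase Os01g0357100 falls from 935 to 54.8 FPKM in Ilpum, and the beta-amylase Os03g0141200 and dehydrin Os02g0669100 show little difference in NIL.

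Dehydrins and LEA proteins accumulate when plant cells lose water and respond to abscisic acid. Of 13 ranked, 9 were at least 2-fold lower and 1 was higher. RAB21 Os11g0454300, a water-stress gene taken up because it was among the 10 highest FPKM of the control, had 5176 reads (3310 FPKM) there and 335 (494 FPKM) with GRH, a log2 ratio of -2.74. The dehydrin near it on chromosome 11, Os11g0454200, had 777 and 50 reads (-2.74). LEA group 3 gene Os05g0542500 had 3214 and 317 reads (-2.14), and dehydrin Os02g0669100 had 4212 and 542 (-1.75). For these last genes NIL had -0.52 and -0.16, and the list median was -0.82 in NIL against -1.85 in Ilpum. The higher member was Os01g0314800, a LEA 3 family gene with 670 and 853 reads (1.55). Protein phosphatases 2C, a family that includes repressors of abscisic acid signalling, had 13 lower and 5 higher of 34 ranked.

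Starch and stored carbon genes were lower more often than higher. Beta-amylase Os03g0141200, of a family that releases maltose from starch, had 2614 reads (574 FPKM) in the control and 274 (139 FPKM) with GRH, a log2 ratio of -2.04, where NIL had 0.05. Of 22 ranked starch genes, 8 were lower and 1 higher. Phosphoenolpyruvate carboxykinase Os10g0204400, an enzyme of sugar formation from organic acids, had 260 and 7 reads (-3.80), with -4.27 in NIL. Phytoene synthase Os06g0729000, the first committed enzyme of carotenoids, had 194 and 6 reads (-3.48), whereas NIL had 324 and 134 (0.80).

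The 15 lowest genes had log2 ratios between -6.53 and -5.40 and 14 of them were at 0 with GRH, with control counts from 48 to 294 reads. In NIL, 5 of the 15 were at least 2-fold lower and 2 were at least 2-fold higher. Over all ranked genes that also reached the minimum in NIL, 14.1% were lower and 10.2% higher there. The 1 of the 15 with reads in both Ilpum libraries was non-symbiotic hemoglobin Os03g0226200, an oxygen and nitric oxide binding protein. It had 285 reads (165 FPKM) in the control and 2 with GRH (-5.50), and 240 and 14 reads in NIL. The strongest differences among genes with reads in both also included a pair of neighbouring BURP domain genes on chromosome 5. Os05g0217800 had 354 and 8 reads (-4.35) and Os05g0217700 had 504 and 14 (-3.87). Wall-associated kinase Os10g0180800, annotated as a negative regulator of blast resistance, had 349 and 33 reads (-2.98), and NIL had 1691 and 22 (-4.07). This gene has several transcripts.

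The NIL libraries, which share no sample with Ilpum, gave values for most of the called genes. Of 403 lower genes with reads in both Ilpum libraries and at least 30 reads in NIL control, 122 were at least 2-fold lower in NIL, and of 533 genes at 0 in Ilpum GRH with as many NIL control reads, 166 were. For genes higher in Ilpum, only those with at least 30 reads in NIL control or NIL GRH were counted. These were 383 of the 475 with reads in both Ilpum libraries and 46 of the 99 at 0 in Ilpum control. Of the 383, 229 were at least 2-fold higher in NIL, and of the 46, 35 were. A gene that reached 30 reads only through NIL GRH was already selected for being higher there. These counts therefore describe the genes and test nothing. Over all ranked genes that also reached the minimum in NIL, 10.2% were at least 2-fold higher in NIL and 14.1% lower. At 4-fold, NIL had 262 higher (2.6%) and 400 lower (3.97%) of these 10071 genes.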

How the data were processed

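RNA was extracted from leaves and sequenced as paired-end stranded total RNA libraries. Per the file headers and labels, the authors trimmed reads with Trimmomatic, aligned them with HISAT and ran StringTie 1.3.4d, with stranded counting, on the RAP-DB transcripts of IRGSP-1.0, while the methods of the paper name other tools. The authors deposited FPKM values, TPM values and coverage from these runs, and a table of estimated counts per gene and transcript, whole numbers made from that coverage that were not rounded further. Coverage was not used for any result.

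From the gene table, log2 ratios were computed with 1 FPKM added, for genes with at least 30 reads in 1 of the 2 Ilpum libraries, in Python 3.11.15 with pandas 2.3.3. Exact 95% conditional binomial intervals of read ratios used scipy 1.17.1. With 1 library per condition no test was run. Thresholds were 4-fold for the ranking and 2-fold for lists. The 54 lists are words searched in the gene descriptions, or gene identifiers, and a word can take in unrelated genes. The members and lists were chosen with earlier results of these data known.

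The rule for named genes took the 15 highest and 15 lowest ratios, the 3 highest and 2 lowest of each list, the 10 highest FPKM of each library, and the marker and clock genes. Further genes were named after their values were seen, among them the 25 highest and 25 lowest with reads in both libraries and members of the routes described.

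Alternatives were another pseudocount, other minimum counts, TPM, TMM factors of edgeR 4.0.16, size factors of DESeq2 1.42.0, quantile normalization, genes with 1 transcript, a 2-fold threshold and the FPKM of the per-sample files. Limiting the genes to those with reads in both libraries was added after the data were seen. The steps were tested on simulated data. Sequences were not used here.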

Additional observations from a re-analysis of the deposited data

Results flagged for a closer look

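Of 346 genes named or tabulated by these rules, 173 differed at least 2-fold with GRH in both Ilpum and NIL. In 14 of them the directions were opposite, and for 13 of these the counting intervals of both lines excluded 0. The difference between the lines was not tested, since each value rests on 1 library per condition.

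Higher in Ilpum and lower in NIL were 9 genes. The nitrate transporter Os10g0554200 had log2 ratios of 1.83 and -1.65, and Os01g0192000, a zinc finger gene annotated as a negative regulator of leaf senescence, had 1.65 and -1.83 (150 and 208 reads in Ilpum, 337 and 28 in NIL). The chloroplast-related genes were Os09g0279500 (2.01 and -1.96) and Os05g0438600, a fructose or sedoheptulose bisphosphatase (1.73 and -1.48). Os06g0725000, from the senescence list, had 1.22 and -2.23, and Os10g0565600, an E3 ligase of histone H2B, 1.22 and -1.96. The immune receptor Os06g0693100 had 2.68 and -1.19 on 8 and 38 reads in Ilpum and 20 and 0 in NIL. The protein phosphatase 2C Os04g0659500 had 1.58 and -1.07, and the glutelin Os02g0249900 had 1.60 and -3.78.

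Lower in Ilpum and higher in NIL were 4 genes, each at 0 reads in Ilpum GRH: Os09g0509100, a NAC-type gene (-5.05 and 1.23), Os10g0364900 (-5.45 and 1.3) and Os11g0177200 (-5.40 and 1.16), both of unknown function, and Os05g0512400 (-3.56 and 2.30), which had 40 reads in Ilpum control and 8 in NIL GRH.

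Seed storage markers also went apart, with a median log2 ratio of 1.12 over 13 ranked genes in Ilpum and -3.47 in NIL, where several glutelins were at 0 with GRH. In Ilpum these markers summed to 1381 reads in the control and 1290 with GRH, and the list holds some genes of protein folding and transport.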

How the results depend on the processing

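No paired analysis was possible because each condition has 1 library, and for the same reason no replicate could be left out. The 574 higher and 1040 lower genes stayed within 1.5 times under TPM, TMM, DESeq2 and quantile scaling, another pseudocount, genes with 1 transcript and the per-sample files. The filter moved them. Asking for 10 reads gave 1302 higher and 2489 lower, 1 read 1941 and 2881, 100 reads 200 and 203, and 30 reads in both libraries 151 and 37. A 2-fold threshold gave 1485 and 2526. The lower count alone moved to 330 with depth-scaled reads, to 425 with reads in both libraries and to 273 with both conditions together. The higher share of changed genes was 35.6% as reported and 63.5% with depth-scaled reads. Of 460 list medians under alternatives, 20 changed sign, none of a list whose median was at least 2-fold. The median for peroxidases ranged from 0.21 to 1.97, for expansin and xyloglucan genes from 0.03 to 1.37, for terpene synthases from 2.76 to 6.78 and for WRKY genes from 0.84 to 1.87. Of 2034 values of named genes under alternatives, 1784 moved by less than their counting interval and 2 reversed. Both belong to Os08g0254900, a gene with several transcripts similar to a glutamyl-tRNA reductase binding protein, at 1.34 as FPKM, -0.26 with TMM and -0.25 with DESeq2. Its cause was not tested. The lower depth of the GRH library limits the lower genes most, since 3 reads there stand for 3.35 CPM (reads scaled by depth), against 1.42 in the control.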

Other observations

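Gene groups outside the account above are listed here, to be read at 2-fold against 14.1% higher and 23.9% lower over all ranked genes. Lipid transfer proteins, small proteins of the cell surface, had 12 of 21 ranked genes at least 2-fold higher and 3 lower, with an Ilpum median log2 ratio of 1.07 beside 0.70 for NIL, and Os12g0115000 went from 38 to 112 reads (2.74). Cytosolic ribosomal protein genes were shifted by a little: 135 of 185 ranked lay above 0 with a median of 0.36, and the median in NIL was also 0.36.

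Heat shock proteins and factors, the chaperones of the cell and their regulators, had 27 of 85 ranked genes at least 2-fold lower and 6 higher, with a median of -0.63. HSP70 gene Os03g0277300 had 225 and 9 reads. UDP-glycosyltransferases, which attach sugars to small molecules, had 19 of 38 lower and 2 higher, with a median of -0.97, beside 0.24 for NIL. Cytochrome P450 genes had 24 of 76 lower and 16 higher, among the higher the elicitor-inducible Os09g0441400 with 32 and 314 reads (4.34).

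Among markers of dividing cells, PCNA (Os02g0805200) had 38 and 6 reads (-1.31), and 7 of 21 ranked genes of the histone list were lower and 1, an E3 ligase of histone H2B (Os10g0565600), was higher. Of 7 ranked genes of ethylene synthesis, 2 were at least 2-fold higher and none was lower. Both are genes of ACC oxidase, the last enzyme of the route: Os05g0149400 had 30 and 89 reads (2.66) and Os05g0149300 had 0 and 35. The ACC oxidase gene with the most control reads, Os09g0451000, had 494 and 111 (-0.94). NB-ARC immune receptors had 11 higher and 11 lower of 45 ranked.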
